A study of Mus musculus with 5 samples.

Results

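The BCL2 family was followed through 10 genes named by symbol: the anti-apoptotic genes Bcl2, Bcl2l1 and Mcl1, and the pro-apoptotic genes Bax, Bak1, Bid, Bad, Bcl2l11, Bbc3 and Pmaip1. Members were found by the gene name that the array gives each probe, and they made up 10 of 37074 gene names and 22 of 56605 probes. All 10 genes had at least 1 probe well above background on each of the 5 arrays. Of the 22 probes, 21 were flagged present on at least 1 of the LSEC and TEC arrays and were kept. The other one, a second probe of Bid, was not well above background on any of the 5 arrays.

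The BCL2 family decides whether the outer membrane of the mitochondrion stays intact when a cell is stressed. Bax and Bak1 encode the effectors that form pores in this membrane, and Bcl2, Bcl2l1 (BCL-XL) and Mcl1 encode the proteins that hold them in check. The BH3-only proteins encoded by Bid, Bad, Bcl2l11 (BIM), Bbc3 (PUMA) and Pmaip1 (NOXA) relay stress signals by binding the guardians or the effectors, and endothelial cells rely on this balance for survival when growth factors are withdrawn.

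Gene expression was measured on 5 one-colour mouse arrays, 1 per condition, to compare tumor endothelial cells (TECs) with liver sinusoidal endothelial cells (LSECs). LSECs came from mouse liver labelled C57BL/6. TECs were the CD31-positive cells that magnetic beads took from tumors grown in the mouse liver from the human hepatoma lines HAK1B and KYN2 and from the mouse line Hepa1-6; the methods spell these lines HAK-1B and KYN-2. Their paragraph on the arrays lists Huh-7 tumors and not HAK-1B, and the labels were followed here. The fifth array held cultured Hepa 1-6 cells, labelled C57L, a hepatoma line grown without a host. The mice were female and 6 weeks old, C57BL/6 or nude (BALB/c nu/nu), whereas the labels give C57BL/6 for the 3 TEC samples; how many animals were pooled for an array is not given in the sources used here. The labels name no treatment for any of the 5 groups.

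No single comparison could be tested, since each condition had 1 array, and this number limits how precise the values are. Probes well above background made up between 44.6% of probes in Hepa 1-6 cells and 78.1% in Hepa1-6 TEC, and between 54.1% and 57.6% on the other 3 arrays. The 3 TEC arrays shared 1 slide, while LSEC and Hepa 1-6 cells were on 1 further slide each, which means that group and slide cannot be told apart. All comparisons with LSEC share the single LSEC array. Levels are given as log2 signal, normalized over the 5 arrays, and a ratio is the difference of 2 such levels; levels of different probes are not compared. The error model of the software that read the scans gave an error of about 0.14 for a log2 level and 0.20 for a log2 ratio of a bright member probe. This array error is a fixed 10% of the signal for bright probes, not a measured spread, and leaves out any difference between animals. Repeated spots varied less, with a median coefficient of variation from 2.62% in Hepa 1-6 cells to 3.08% in Hepa1-6 TEC.

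The endothelial label was checked with marker genes. All 10 pan-endothelial markers were well above background on the LSEC and TEC arrays and 3 of 10 were in Hepa 1-6 cells. Their summed signal in TECs was 0.149 (HAK1B), 0.152 (Hepa1-6) and 0.275 (KYN2) of that in LSEC, and that of the 10 LSEC markers was 0.118, 0.108 and 0.139. By 1.5-fold, 8 of 10 pan-endothelial and 9 of 10 LSEC markers were lower in all 3 TECs. Kdr, the VEGF receptor and among the steepest, was at 16.24 in LSEC and between 12.55 and 13.00 in TECs. Pecam1 was at 11.10 in LSEC and 9.93, 9.15 and 11.01 in HAK1B, Hepa1-6 and KYN2 TEC, and Emcn was above LSEC in KYN2 TEC. The LSEC marker Lyve1 was at 11.29 in LSEC and 11.07, 12.26 and 13.17 in these TECs. In the same order, summed neutrophil markers were 31.5, 6.86 and 2.02 times the LSEC level, macrophage markers 0.839, 0.511 and 0.584, and T and NK cell markers 0.848, 5.02 and 1.14. B cell markers were at 1.34 times the LSEC level in HAK1B TEC and 0.422 times in Hepa1-6 TEC, with KYN2 TEC between them. Fibroblast and pericyte markers were 1.84, 3.65 and 2.77 times, cycling cell markers 3.22, 9.44 and 4.49 times, and hepatocyte markers 0.0297, 1.43 and 0.0542 times the LSEC level. Such sums follow the brightest genes of a list. In Hepa1-6 TEC the T and NK cell sum was mostly Gzma (14.85), and the list's median log2 ratio was -0.01. The brightest fibroblast and pericyte marker there was Dcn, at 14.72, which was at 16.74 in Hepa 1-6 cells. All 10 macrophage markers were well above background on the LSEC and TEC arrays, with Csf1r, a macrophage receptor, at 16.35 to 17.60. The isolates therefore differed in cell type markers along with tumor, and fewer cells of a type and less RNA per cell cannot be told apart in such bulk samples.

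Each array probe is 60 bases long, and the place it reads in a transcript decides what a ratio stands for. The following 4 probes are shown because each reads the coding part of its gene and because other probes of the same genes, which read elsewhere, gave other ratios. Each holds at least 1 forward reading frame without a stop codon. They are written 5′ to 3′ as the array files give them, in lower case throughout, and coordinates are mm9.
Bcl2, probe A_51_P380013, chr1:108608970-108609029, minus strand: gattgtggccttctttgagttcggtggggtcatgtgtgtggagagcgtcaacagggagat
Bcl2l1, probe A_52_P510877, chr2:152655185-152655244, minus strand: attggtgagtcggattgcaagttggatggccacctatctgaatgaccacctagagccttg
Bax, probe A_51_P254541, chr7:52721469-52721624, minus strand: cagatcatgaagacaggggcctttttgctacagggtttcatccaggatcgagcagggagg
Bcl2l11, probe A_51_P484880, chr2:127972893-127983988, plus strand: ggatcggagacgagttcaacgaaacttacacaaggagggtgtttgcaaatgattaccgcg
The Bax probe spans 156 bases of genome and the Bcl2l11 probe 11096, so both cross a splice junction and read spliced RNA.

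The brightest probes of Bcl2l1, Mcl1 and Bad hold AATAAA, the letters of the common polyadenylation hexamer. Of 21 member probes searched on the strand as written (Pmaip1 was left out), 3 (14.3%) hold it, against 5529 of 56605 probes (9.77%) on the array, and a match of letters does not show that the site is used. The bases round the hexamer, which is in capitals, are given for these 3 because the main Bcl2l1 and Mcl1 levels come from them.
Bcl2l1, within probe A_55_P1974877, chr2:152606404-152606463, minus strand: gtgcagttcagtAATAAAtggtgtctgtga
Mcl1, within probe A_55_P2740649, chr3:95467049-95467108, plus strand: ttctgaagagaaAATAAAcctttttccccc
Bad, within probe A_55_P1962234, chr19:7026323-7026382, plus strand: aacgtgctttatAATAAAgcctgcgcatgt

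Among the anti-apoptotic genes, read by their brightest probes, Bcl2 and Mcl1 were lowest in Hepa 1-6 cells and next lowest in Hepa1-6 TEC, while Bcl2l1 was highest on these same 2 arrays; other probes of Bcl2 and Bcl2l1 gave other orders. The brightest Bcl2 probe, A_52_P534870, was at 10.31 in LSEC, 10.23 in HAK1B TEC, 8.95 in Hepa1-6 TEC, 9.90 in KYN2 TEC and 8.23 in Hepa 1-6 cells. LSEC and HAK1B TEC differed by less than the array error, and Hepa1-6 TEC was 2.56-fold and Hepa 1-6 cells 4.23-fold below LSEC. The mean log2 ratio of the 3 TECs was -0.62 ± 0.66 (SD, n = 3 arrays), so the spread between tumors was as wide as the mean.

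The other Bcl2 probes split. The probe A_52_P438280 followed the brightest, at 7.23 in LSEC, 7.22 in HAK1B TEC, 5.45 in Hepa1-6 TEC and 6.48 in KYN2 TEC, and was not well above background in Hepa 1-6 cells. The coding probe shown above was at 9.07 in LSEC, 9.60 in HAK1B TEC, 9.43 in Hepa1-6 TEC, 9.63 in KYN2 TEC and 8.82 in Hepa 1-6 cells, so that all 3 TECs were above LSEC, by 1.28- to 1.48-fold. The direction of Bcl2 in TECs thus depended on the probe, and in HAK1B TEC also on averaging: the mean over the 3 probes was 0.15 against -0.08 for the brightest.

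Bcl2l1, which encodes BCL-XL, was higher in Hepa1-6 TEC, KYN2 TEC and Hepa 1-6 cells with every one of its 5 probes. The brightest, A_55_P1974877, was at 13.65 in LSEC, 13.53 in HAK1B TEC, 14.38 in Hepa1-6 TEC, 14.05 in KYN2 TEC and 14.74 in Hepa 1-6 cells. The coding probe shown above was at 7.28 in LSEC, 7.98 in HAK1B TEC, 8.28 in Hepa1-6 TEC, 8.51 in KYN2 TEC and 9.33 in Hepa 1-6 cells, which put all 3 TECs above LSEC by 1.63-, 2.01- and 2.35-fold. Across the 5 probes the log2 ratio ran from -0.12 to 0.70 in HAK1B TEC, 0.40 to 2.20 in Hepa1-6 TEC, 0.39 to 1.31 in KYN2 TEC and 1.09 to 2.20 in Hepa 1-6 cells. In HAK1B TEC the brightest probe alone was below LSEC, and it was above LSEC at 0.13 when arrays were scaled to the 75th percentile.

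Mcl1, whose protein is short-lived and sustains many blood cells, had TEC levels on both sides of LSEC. Its brightest probe was at 15.73 in LSEC, 16.13 in HAK1B TEC, 14.88 in Hepa1-6 TEC, 15.37 in KYN2 TEC and 13.50 in Hepa 1-6 cells. The second probe, A_51_P238786, gave the same order, at 15.28, 15.81, 14.58, 15.05 and 13.06. Hepa 1-6 cells were 4.69- and 4.65-fold below LSEC with the 2 probes, while HAK1B TEC was 1.33- and 1.44-fold above it. KYN2 TEC lay 1.28-fold below LSEC with the brightest probe, a log2 ratio of -0.35 that turned to 0.34 with 75th percentile scaling. Over the TECs, Mcl1 and the brightest Bcl2 probe had the same order as the summed macrophage and B cell markers. The macrophage markers Clec4f, Cd5l, Vsig4 and Timd4 had the reverse order, and the part of these cells in the result was not tested.

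**Figure D1:**
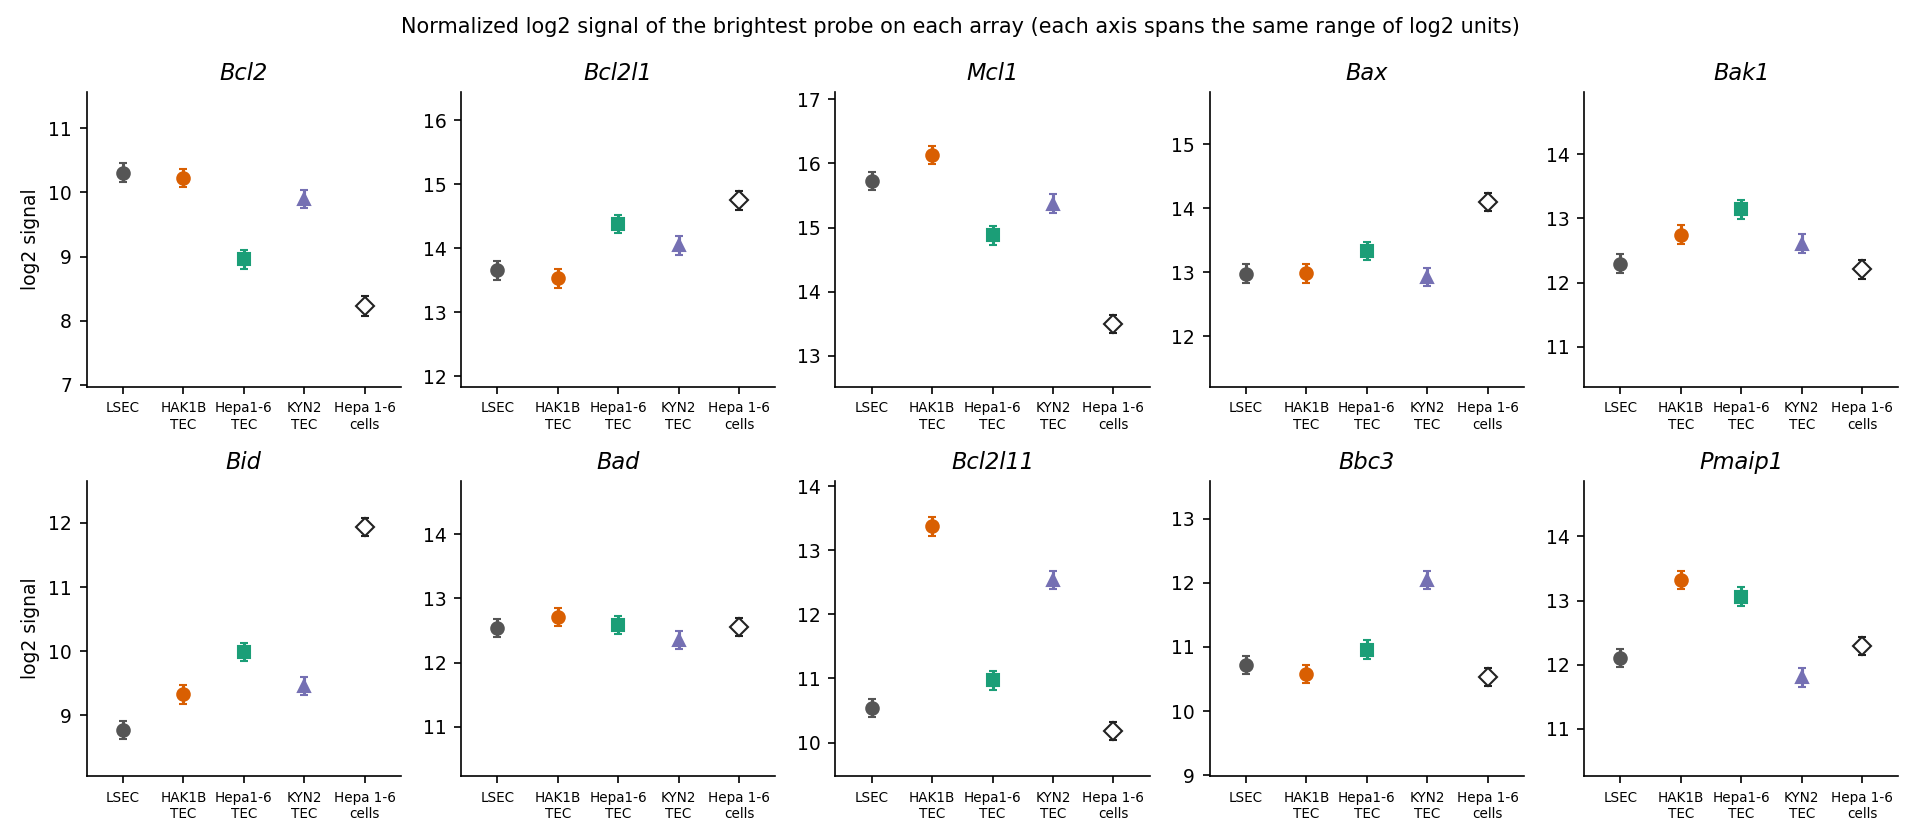
Normalized log2 signal (y axis) of the brightest probe of each of the 10 members on the 5 arrays (x axis), 1 array per condition, with the error of the scan-reading software's error model as bars. Every panel spans the same range of log2 units, and levels are not comparable between panels. Bcl2 (10.31 in LSEC, 8.23 in Hepa 1-6 cells) and Mcl1 (15.73 and 13.50) are lowest in the cultured cells, Bid (8.77 and 11.93) is highest there, Bcl2l11 is high in HAK1B TEC (13.37) and KYN2 TEC (12.54), and Bad stays between 12.35 and 12.71.

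Of the effectors, Bax was close to LSEC in HAK1B and KYN2 TEC with its brightest probe, while Bak1 was above LSEC in all 3 TECs. Bax, with its brightest probe A_55_P2137406, was at 12.98 in LSEC, 12.98 in HAK1B TEC, 13.34 in Hepa1-6 TEC, 12.93 in KYN2 TEC and 14.10 in Hepa 1-6 cells. LSEC, HAK1B TEC and KYN2 TEC lay within the array error of each other, and the small differences among them took either sign under other processing (-0.03 for HAK1B TEC with normexp, 0.15 for KYN2 TEC with 75th percentile scaling). The spliced Bax probe shown above was at 11.16 in LSEC, 11.48 in HAK1B TEC, 11.58 in Hepa1-6 TEC, 11.87 in KYN2 TEC and 12.94 in Hepa 1-6 cells. Both probes thus placed Hepa 1-6 cells highest, by 2.18- and 3.42-fold over LSEC, and only the spliced probe placed KYN2 TEC above LSEC.

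Bak1, the effector that resides on mitochondria, was at 12.29 in LSEC, 12.75 in HAK1B TEC, 13.14 in Hepa1-6 TEC, 12.61 in KYN2 TEC and 12.21 in Hepa 1-6 cells. All 3 TECs were above LSEC, by 1.37-, 1.80- and 1.24-fold, and Hepa 1-6 cells were within the array error of LSEC, below it by 0.09 and above it by 0.37 with 75th percentile scaling. Bak1 has a single probe, so no second reading of this difference exists.

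The BH3-only genes held the largest ratios among the members. Bcl2l11, the gene of BIM, which is needed for the death of many blood cells, was at 10.54 in LSEC, 13.37 in HAK1B TEC, 10.97 in Hepa1-6 TEC, 12.54 in KYN2 TEC and 10.18 in Hepa 1-6 cells with its brightest probe, A_52_P158527. HAK1B TEC was 7.14-fold and KYN2 TEC 4.01-fold above LSEC, whereas Hepa1-6 TEC was 1.35-fold above it. Of all genes tested, 2.41% had as high a ratio in HAK1B TEC, 5.41% in KYN2 TEC and 38.9% in Hepa1-6 TEC.

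All 4 Bcl2l11 probes were above LSEC in all 3 TECs, and all 4 ordered the TECs as HAK1B, KYN2 and Hepa1-6. The spliced probe shown above was at 5.88 in LSEC, 8.97 in HAK1B TEC, 7.75 in Hepa1-6 TEC, 8.51 in KYN2 TEC and 8.16 in Hepa 1-6 cells, a difference of 8.54-, 3.66-, 6.18- and 4.87-fold. The probe A_55_P2504051 was at 7.13 in LSEC, 9.18 in HAK1B TEC, 8.79 in Hepa1-6 TEC, 8.86 in KYN2 TEC and 6.58 in Hepa 1-6 cells, and A_52_P348214 was at 5.93, 7.68, 6.09 and 7.32 in the endothelial samples and not well above background in Hepa 1-6 cells. In Hepa 1-6 cells the probes therefore disagreed, since the spliced coding probe was above LSEC and the brightest probe and A_55_P2504051 were below it by 0.35 and 0.55 on the log2 scale. A_52_P348214 spans 682 bases of genome, so it crosses a splice junction too, and it was well above background in LSEC but not in these cells. The summed macrophage and B cell markers ordered the 3 TECs in the same way as Bcl2l11, while the macrophage markers Clec4f, Cd5l, Vsig4 and Timd4 had the reverse order. The part of these cells in the result was not tested.

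**Figure D2:**
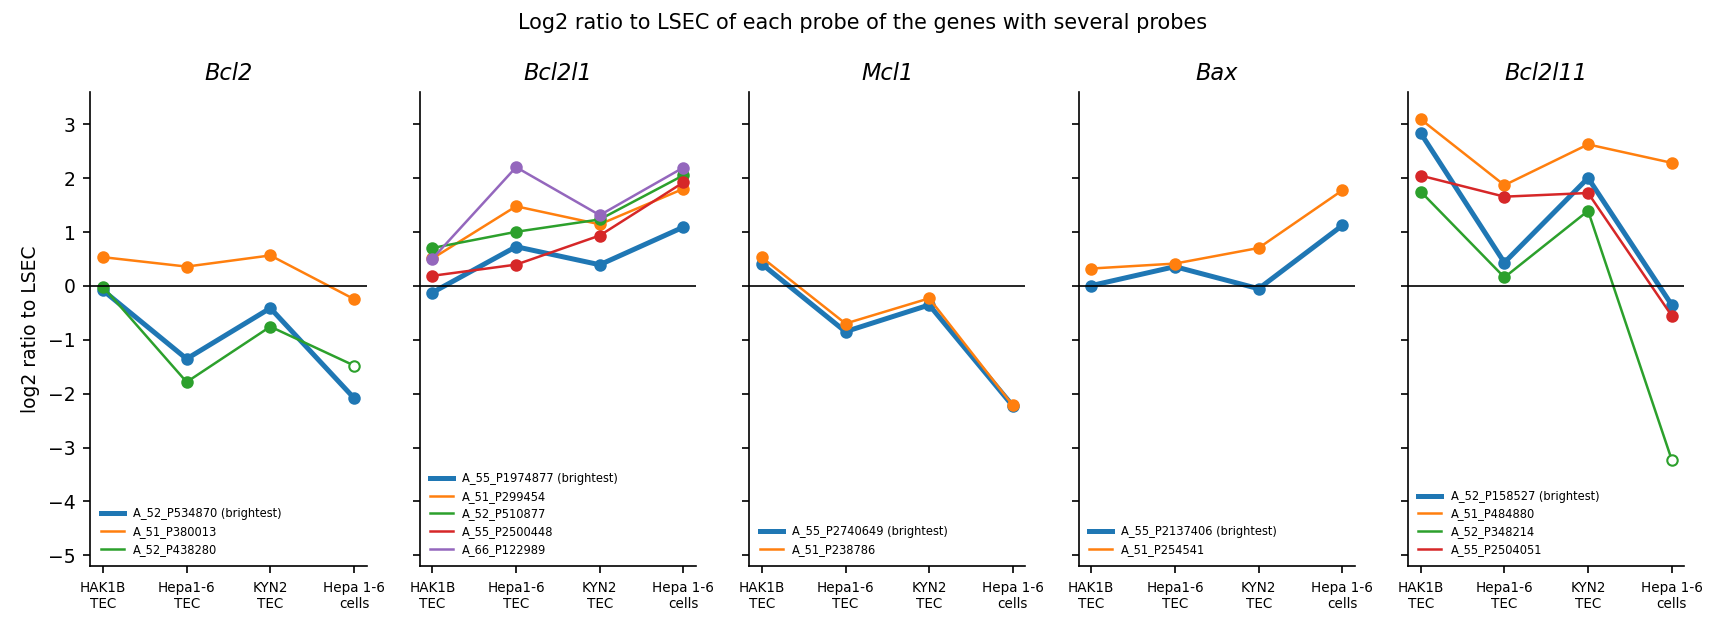
Log2 ratio to LSEC (y axis) of each probe of Bcl2, Bcl2l1, Mcl1, Bax and Bcl2l11 in the 3 TECs and Hepa 1-6 cells (x axis), with a line joining the values of 1 probe and a thick line for the brightest; open circles are probes not well above background in that sample, whose value is only a bound. All 5 Bcl2l1 probes lie above 0 in Hepa 1-6 cells (1.09 to 2.20) and all 4 Bcl2l11 probes in the 3 TECs (0.16 to 3.09), the 2 Mcl1 probes run together, and the Bcl2 probes lie on both sides of 0.

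Bid, whose protein is cut by caspase-8 and carries the signal of death receptors to mitochondria, was higher in every sample than in LSEC. It was at 8.77 in LSEC, 9.32 in HAK1B TEC, 9.99 in Hepa1-6 TEC, 9.45 in KYN2 TEC and 11.93 in Hepa 1-6 cells. The difference was 1.47-, 2.33- and 1.61-fold in the TECs and 8.98-fold in Hepa 1-6 cells, and 6.10% of all genes had as high a ratio in these cells. Its second probe, on an Ensembl transcript at chr6:120857038-120857097, stayed at background throughout.

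Pmaip1 and Bbc3, both p53 targets, were higher in different TECs. Pmaip1 was at 12.10 in LSEC, 13.32 in HAK1B TEC, 13.06 in Hepa1-6 TEC, 11.80 in KYN2 TEC and 12.29 in Hepa 1-6 cells. HAK1B TEC was 2.33-fold and Hepa1-6 TEC 1.94-fold above LSEC, and KYN2 TEC was 1.23-fold below it. The summed neutrophil markers had the same order over the TECs as Pmaip1 (31.5, 6.86 and 2.02 times the LSEC level). The neutrophil markers Mpo and Elane had the reverse order, and Mmp8 was level over the TECs (9.85, 9.86 and 9.83). The part of neutrophils in the result was not tested. Bbc3, in contrast, was at 10.72 in LSEC, 10.58 in HAK1B TEC, 10.96 in Hepa1-6 TEC, 12.04 in KYN2 TEC and 10.53 in Hepa 1-6 cells. KYN2 TEC stood above LSEC by 1.32 on the log2 scale and the other 3 samples lay within 0.24 of it on the log2 scale, the ratio of Hepa 1-6 cells turning from -0.19 to 0.08 with 75th percentile scaling.

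Bad, which binds BCL2 and BCL-XL when growth factor signalling ceases, was the flattest member. It was at 12.54 in LSEC, 12.71 in HAK1B TEC, 12.58 in Hepa1-6 TEC, 12.35 in KYN2 TEC and 12.56 in Hepa 1-6 cells. No ratio to LSEC exceeded the array error of 0.20 with the main normalization. The ratios of HAK1B TEC (0.34) and Hepa 1-6 cells (0.50) did so with 75th percentile scaling. The range of Bad over the TECs was 0.36 with the main normalization, and 88.0% of all genes had a range as wide.

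**Figure D3:**
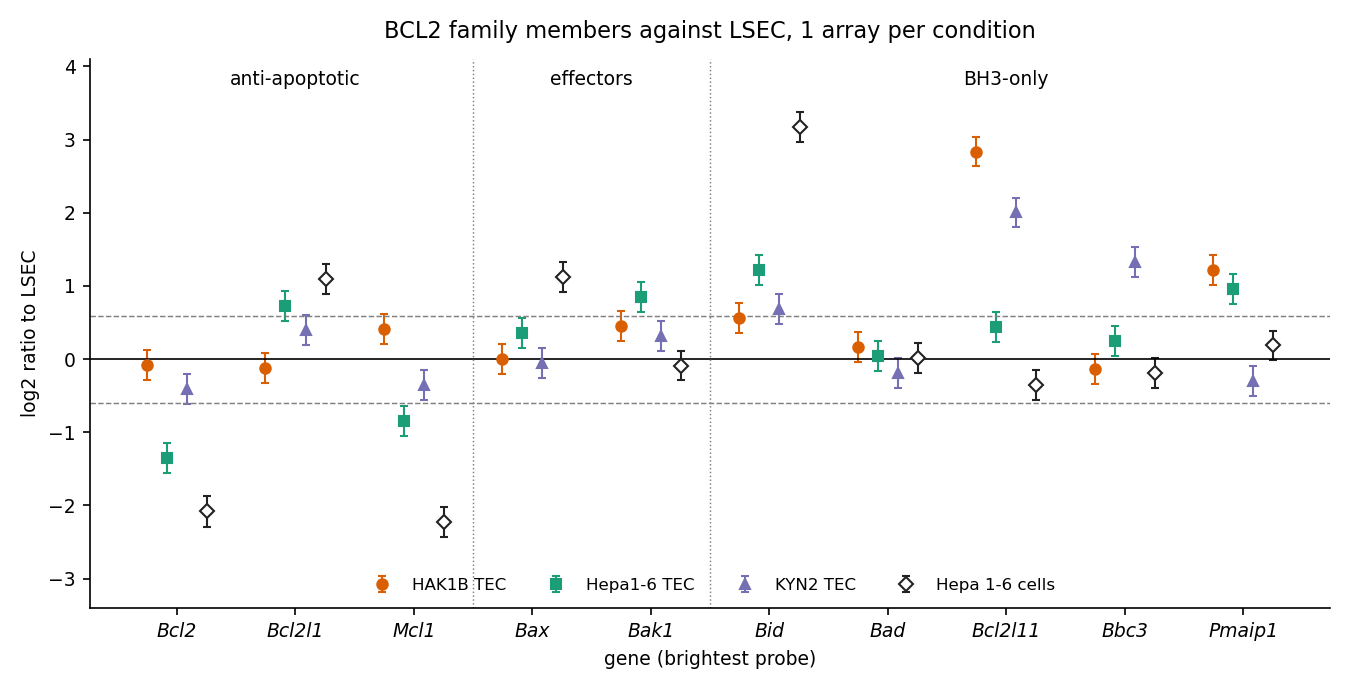
Log2 ratio to LSEC (y axis) of the brightest probe of each member (x axis) in the 3 TECs and in Hepa 1-6 cells, 1 array per condition, with the error of the scan-reading software's error model as bars. Dashed lines mark ratios of 1.5 and 0.66. The anti-apoptotic genes on the left spread from -2.23 (Mcl1 in Hepa 1-6 cells) to 1.09 (Bcl2l1 in the same cells), and the BH3-only genes on the right reach 3.17 (Bid in Hepa 1-6 cells) and 2.84 (Bcl2l11 in HAK1B TEC).

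The members were then counted by the rule of size of the study, which asks both for a ratio (1.5 or more, or 0.66 or less) and for a Z-score of the log2 ratio (2 or more, or -2 or less). One member was called: Bcl2l11 was higher in HAK1B TEC, through its spliced coding probe, where 3.6% of all genes were called higher and 4.51% lower. With the mean over all probes of a gene this call was lost, and 0 members were called in HAK1B TEC. No member was called in Hepa1-6 TEC, where 5.38% of genes were called higher and 2.68% lower, or in KYN2 TEC, where 4.5% and 3.52% were. None was called in Hepa 1-6 cells, where 2.99% and 5.23% of genes were, nor in all 3 TECs together, where 0.467% and 0.859% were. The Z-score set the limit at 7.25-fold in HAK1B TEC, 11.4-fold in Hepa1-6 TEC, 6.79-fold in KYN2 TEC and 39.8-fold in Hepa 1-6 cells. The brightest Bcl2l11 probe, at 7.14-fold, thus fell just short in HAK1B TEC, and Bcl2l11 was called in KYN2 TEC as well with normexp or when only probes above background on both arrays were kept.

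By the ratio alone and the brightest probe, 2 members were higher in HAK1B TEC (Bcl2l11 and Pmaip1) and none lower, against 24.1% of genes higher and 24.1% lower. In Hepa1-6 TEC 4 were higher (Bcl2l1, Bak1, Bid and Pmaip1) and 2 lower (Bcl2 and Mcl1), against 34.7% and 31.2% of genes. In KYN2 TEC 3 were higher (Bid, Bcl2l11 and Bbc3) and none lower, against 25.5% and 24.7%, and in Hepa 1-6 cells 3 were higher (Bcl2l1, Bax and Bid) and 2 lower (Bcl2 and Mcl1), against 33.7% and 33.1%. The counts of higher members were near these shares, which hold for any genes of the array.

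No member passed the ratio in all 3 TECs with its brightest probe, where 10.3% of genes were higher and 13.7% lower. Bid came nearest, missing it in HAK1B TEC at 1.47-fold. With the mean over all probes of a gene Bcl2l11 passed in all 3. Probe by probe, 3 of 21 were higher in all 3 TECs and none lower, against 10.2% and 13.1% of 42112 probes: the coding probes of Bcl2l1 and Bcl2l11 shown above, and A_55_P2504051 of Bcl2l11.

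The median log2 ratio of the 3 anti-apoptotic genes was compared with that of the 7 pro-apoptotic genes. The anti-apoptotic median was -0.08 in HAK1B TEC, -0.85 in Hepa1-6 TEC, -0.35 in KYN2 TEC and -2.08 in Hepa 1-6 cells. The pro-apoptotic median was 0.45, 0.43, 0.31 and 0.02. The difference was therefore negative in every comparison, at -0.53, -1.28, -0.67 and -2.10, with a mean over the TECs of -0.83 ± 0.40 (SD, n = 3 tumors that share 1 LSEC array). It shrank to -0.10 in HAK1B TEC with the mean over all probes, and to -0.13 in KYN2 TEC with 75th percentile scaling. The mean over the TECs was -0.46 with 75th percentile scaling. Single genes ran against the difference by more than the array error: Bcl2l1 was higher in Hepa1-6 TEC (0.73), KYN2 TEC (0.39) and Hepa 1-6 cells (1.09), Mcl1 was higher in HAK1B TEC (0.41), Pmaip1 was lower in KYN2 TEC (-0.30) and Bcl2l11 was lower in Hepa 1-6 cells (-0.35). With 3 genes on one side and 7 on the other, each median is the value of 1 gene, and that gene changed with the array. The pro-apoptotic median was Bak1 in HAK1B and KYN2 TEC, Bcl2l11 in Hepa1-6 TEC and Bad in Hepa 1-6 cells. The anti-apoptotic median was Bcl2 in HAK1B TEC and Hepa 1-6 cells and Mcl1 in Hepa1-6 and KYN2 TEC.

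For the 5 members beyond the ratio in Hepa 1-6 cells, which were picked by that ratio, the brightest probe placed Hepa1-6 TEC between LSEC and the cultured cells. The levels in LSEC, Hepa1-6 TEC and Hepa 1-6 cells were 10.31, 8.95 and 8.23 for Bcl2, 15.73, 14.88 and 13.50 for Mcl1, and 13.65, 14.38 and 14.74 for Bcl2l1. They were 12.98, 13.34 and 14.10 for Bax and 8.77, 9.99 and 11.93 for Bid. Other probes did not all do so: with the Bcl2 coding probe Hepa1-6 TEC (9.43) lay above both LSEC (9.07) and the cells (8.82), and KYN2 TEC was nearer to the cells than Hepa1-6 TEC with the Bcl2l1 coding probe (8.51 against 8.28, cells 9.33) and the spliced Bax probe (11.87 against 11.58, cells 12.94). Of the remaining members, Bak1, Pmaip1 and Bcl2l11 in Hepa1-6 TEC (13.14, 13.06 and 10.97) lay above both LSEC (12.29, 12.10 and 10.54) and the cells (12.21, 12.29 and 10.18), as did Bbc3 (10.96, against 10.72 and 10.53) and, within the array error, Bad (12.58, against 12.54 and 12.56). All these ratios use the same LSEC array. Phlda3, a p53 target of the lists below, was at 9.75, 13.52 and 14.92 on these arrays and at 10.22 and 11.11 in HAK1B and KYN2 TEC. Perp, of the same list, was at 5.32, 11.48 and 14.59, and not well above background in HAK1B and KYN2 TEC. Cdkn1a, also of that list, was at 11.42, 13.63 and 12.47 and at 14.51 and 14.18 in HAK1B and KYN2 TEC. Alb, the albumin gene and a hepatocyte marker, was at 12.97, 15.54 and 13.94 and at 6.51 and 8.85 in HAK1B and KYN2 TEC. Alb was thus higher in Hepa1-6 TEC than in the cells. Of the 10 hepatocyte markers, 9 were well above background in LSEC, 9 in Hepa1-6 TEC and 3 in Hepa 1-6 cells. Fabp1 (9.11) and Apoa1 (8.83) were above it in Hepa1-6 TEC and not in the cells. Only Apob was higher in the cells (9.95) than in Hepa1-6 TEC (9.21). The part of hepatoma cell RNA in the Hepa1-6 TEC values was not tested.

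As the one test the arrays allow, the mean of the TECs was set against LSEC in limma, which left 2 residual degrees of freedom; the fit takes the spread of LSEC to be that of the TECs, which come from 3 different lines. No probe passed an adjusted p of 0.05 (0% of 42112 probes), and 3581 (8.5%) had an unadjusted p under 0.05. Of 21 member probes none passed after adjustment and 2 were under 0.05 before it, both of Bcl2l11. The spliced coding probe had a log2 ratio of 2.53 with a standard error of 0.68 and an adjusted p of 0.497 in limma, and was higher in 3 of 3 TECs. The probe A_55_P2504051 had 1.81, 0.50 and 0.505. For Bid the values were 0.82, 0.55 and 0.794. The other member probes had adjusted p-values from 0.712 to 0.996 in limma.

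Other genes of the pathway were taken from 8 lists of 77 genes. In the BCL2 family itself, 2 further pro-survival genes were above LSEC by 1.5-fold in all 3 TECs and 1 was below, of 3 above background. Bcl2a1d, which myeloid cells express, was at 13.82 in LSEC, 16.16 in HAK1B TEC, 15.08 in Hepa1-6 TEC and 15.72 in KYN2 TEC, and Bcl2a1c was at 12.90, 11.60 and 12.59 in the TECs, above LSEC in each. Neither was well above background in Hepa 1-6 cells, which were at least 233-fold and 16.4-fold lower than LSEC. The Bcl2a1 genes are near-identical copies, so the reading cannot be assigned to one of them. Their order over the TECs was also that of the summed macrophage markers, though not of each marker, and the part of macrophages was not tested. Bcl2l2 (BCL-W) was below LSEC in all TECs, at 9.94 in LSEC and 8.88 to 9.01 in TECs. The median of mean TEC ratios over these 3 genes was 1.83, which is the value of Bcl2a1d. The 2 Bcl2a1 genes may not be separate readings in this count and median. The background over all genes was 10.3% higher and 13.7% lower.

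Among 7 further pro-apoptotic genes 2 were higher and 2 lower in all 3 TECs by 1.5-fold. Bnip3, a hypoxia-induced mitophagy gene, was at 11.96 in LSEC, 14.14 in HAK1B TEC, 14.16 in Hepa1-6 TEC and 15.67 in KYN2 TEC. Bik was at 9.63 in LSEC and 7.72, 7.15 and 8.59 in the TECs. Bcl2l14 was not well above background in LSEC, and the TECs were at least 2.60-, 18.1- and 2.26-fold higher, but its other probe was below LSEC in all 3. The list's median of mean TEC ratios was 0.45.

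Genes that control the BH3-only members were found in both directions. Of 8 transcription factors (median of mean TEC ratios -0.04), E2f1 was higher in all 3 TECs, by 1.21, 1.97 and 1.37 on the log2 scale, and Jun was lower, at 16.68 in LSEC and 15.16 to 15.32 in TECs. Foxo1, a transcription factor that activates Bcl2l11, was at 12.33 in LSEC and 11.42, 10.83 and 11.84 in the TECs. Foxo3, of the same list, went the other way, above LSEC by 0.85, 0.36 and 0.45 on the log2 scale, with 3 of 3 probes higher in all 3 TECs. Trp53 lay within 0.66 of LSEC in every TEC. Of 12 p53 targets besides the members (median 0.23, which was -0.32 without Hepa1-6 TEC), Cdkn1a, the p21 gene, was at 11.42 in LSEC and 14.51, 13.63 and 14.18 in TECs with all 3 probes higher. Mdm2 was higher by 0.63 to 1.21 on the log2 scale. None was lower by 1.5-fold in all 3 TECs, though Sesn1 (-0.38, -0.75 and -1.15) and Ei24 (-0.33, -0.52 and -0.56) were below LSEC in each.

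**Figure D4:**
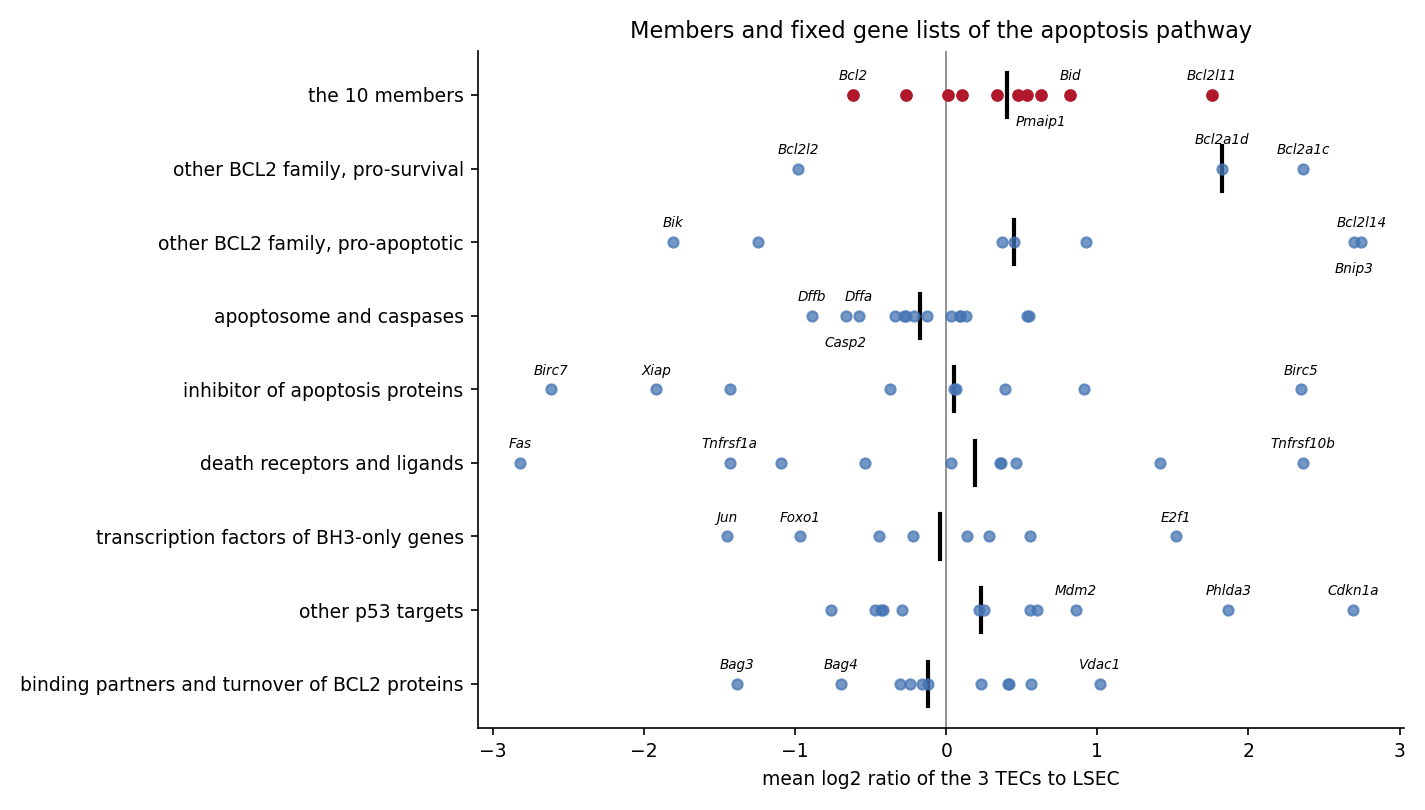
Mean log2 ratio to LSEC over the 3 TECs (x axis) for the 10 members and for the genes of 8 lists of the apoptosis pathway that were above background (rows), 1 point per gene from its brightest probe, with the median of each row as a black bar; the 3 genes of each list with the widest mean ratio are named. The members run from -0.62 (Bcl2) to 1.76 (Bcl2l11) with a median of 0.40, against a median of 0.10 for all genes tested.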

How the data were processed

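RNA of 5 samples was labelled with Cy3 and hybridized to mouse arrays of 60-mer probes. The authors read the scans with Agilent Feature Extraction (9.5.1.1 in the submitters' processing notes, 10.7.1.1 in the file headers) and deposited linear intensity for every spot, from which the scanner software had subtracted background, together with a normalized intensity table. Control spots were left out and repeated spots averaged. The intensity was log2-transformed and quantile normalized over the 5 arrays here, whereas the methods normalize each pair. Probes flagged present on at least 1 of the 4 endothelial arrays were kept and lincRNA probes left out, which left 42112 probes; the rule of size took probes present on at least 1 array of each comparison. Genes were represented by the probe with the highest mean log2 level (26771 genes), and by all probes for the rule of size. Z-scores used the mean and SD of the log2 ratios of these probes. limma 3.58.1 in R 4.3.3 with Benjamini-Hochberg adjustment was used for the 3 TECs against LSEC; other steps used Python 3.11.15, numpy 2.4.6 and pandas 2.3.3. Scripts for the calls and limma were tested on simulated data. Alternatives were 75th percentile scaling, quantile normalization by pair, normexp (offset 50), the deposited table, the mean over all probes, probes above background, and each TEC left out. The text names all members and up to 3 genes per pathway list with the largest mean ratio; other list genes and markers were chosen after their values were seen. The members and lists were chosen with earlier results of these data known. All 19 member probes with a RefSeq accession carried the symbol of the RefSeq gene table (GRCm38.p6).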

Additional observations from a re-analysis of the deposited data

Results flagged for a closer look

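In Mcl1 and Pmaip1 the TEC arrays lay on opposite sides of LSEC by more than the array error of a log2 ratio. With 1 array per tumor the difference between tumors was not tested. The log2 ratio of Mcl1 was 0.41 in HAK1B TEC, -0.85 in Hepa1-6 TEC and -0.35 in KYN2 TEC. That of Pmaip1 was 1.22 in HAK1B TEC, 0.96 in Hepa1-6 TEC and -0.30 in KYN2 TEC. With 75th percentile scaling KYN2 TEC moved above LSEC for Mcl1 (0.34), and Hepa1-6 TEC stayed below it at -0.46. Under the same scaling Pmaip1 in KYN2 TEC was at -0.17, within the array error of about 0.20.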

How the results depend on the processing

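No paired analysis was possible because no condition had a replicate. Quantile normalization by pair could not be run for limma, since LSEC would have 3 values, and a slide block could not be run, since slide and group coincide. The number of members called in HAK1B TEC was 0 with the mean over all probes and 1 in the other alternatives. In KYN2 TEC it was 1 with normexp and 1 with probes above background on both arrays. The number of members 1.5-fold higher in all 3 TECs was 1 with the mean over all probes (Bcl2l11), and 1 to 1 when a TEC array was left out: Bid without HAK1B, Bcl2l11 without Hepa1-6 and Pmaip1 without KYN2. The anti-apoptotic minus pro-apoptotic difference kept its sign in each alternative run. With 75th percentile scaling it was -0.82 in Hepa1-6 TEC, -0.13 in KYN2 TEC and -0.46 as the mean of the TECs, and with the mean over all probes -0.10 in HAK1B TEC and -1.28 in Hepa 1-6 cells; without 1 TEC array its mean ran from -0.97 to -0.60. The cause was not tested. The 75th percentile scaling moved the median of all probes to 0.42 in Hepa1-6 TEC and 0.44 in Hepa 1-6 cells. Of the members' ratios recomputed, 304 kept their sign and moved by less than their spread, and 12 kept it and moved more. The other sign was taken by 10 that moved less and 4 that moved more. Spread here is the SD of a member's ratio over the 3 TEC arrays, used for single arrays and Hepa 1-6 cells too. Some of the 304 could not move. The brightest member probes were all above background, so that alternative repeated the main ratios. The mean over all probes cannot change Bak1, Bad, Bbc3 and Pmaip1, which have 1 probe. With limma no member probe passed in any setting. Without HAK1B, 1 member probe had an unadjusted p under 0.05, without KYN2 none, and without Hepa1-6 4, all of them Bcl2l11.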

Other observations

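In the death receptor list, 2 of 10 genes were higher and 3 lower in all 3 TECs by 1.5-fold, and the median of mean TEC ratios was 0.19, or -0.26 with the mean over all probes of a gene. Fas, a death receptor, was at 12.55 in LSEC and 9.96, 9.43 and 9.79 in HAK1B, Hepa1-6 and KYN2 TEC with its brightest probe, and 1 of its 3 probes was below LSEC in all 3 TECs. Tnfrsf10b, the TRAIL receptor, was at 6.81 in LSEC, 8.65 to 9.60 in TECs and 11.33 in Hepa 1-6 cells, with 2 of 3 probes above LSEC in all 3 TECs. Tnfrsf1a, the main TNF receptor, was at 14.85 in LSEC and 13.34 to 13.52 in TECs. Of 9 inhibitor of apoptosis genes (median 0.05, or -0.32 with the mean over all probes), Birc5 (survivin), which is expressed in mitosis, was higher in all 3 TECs, at 10.14 in LSEC, 11.84 to 13.48 in TECs and 15.00 in Hepa 1-6 cells, and all 10 cycling cell markers, Birc5 among them, were higher too. Xiap, which blocks caspases, was at 13.48 in LSEC and 11.17 to 11.84 in TECs, lower with 3 of 3 probes. Birc7 was at 5.72 in LSEC and not well above background in HAK1B and KYN2 TEC, which were at least 2.71- and 2.10-fold lower.

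None of 14 apoptosome and caspase genes was 1.5-fold higher or lower in all 3 TECs, and the list's median mean ratio was -0.17. Casp2 ran from -0.52 to -0.89 and Dffb from -0.43 to -1.43 on the log2 scale, while Dffa was 0.19 in HAK1B TEC and -1.70 in Hepa1-6 TEC. Of 11 binding partners of BCL2 proteins (median -0.12), Bag3 was lower in all 3 TECs (13.77 in LSEC, 12.20 to 12.71 in TECs), Vdac1 ran from 0.38 to 1.42, and Bag4 from -0.15 to -1.19.

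The array coordinates of the Bcl2l1 probes A_55_P1974877 (chr2:152606404-152606463) and A_66_P122989 (chr2:152606400-152606446) overlap, yet the log2 ratio in Hepa1-6 TEC was 0.73 with the first and 2.20 with the second. Over genes with several probes, the median SD between probes of a gene was 0.50 in this comparison. The cause was not tested.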
